A study of Saccharomyces cerevisiae with 4 samples.

Results

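IMD2, IMD3, IMD4, GUA1, URA2, URA4, URA1 and URA8 are 8 genes of guanine nucleotide and pyrimidine synthesis in budding yeast, several of which adjust their own transcription to the nucleotide supply. They were chosen by gene symbol, with values of the comparison described here already known, so their differences between the groups are given as a description, and a count of them past a threshold is printed only beside the same share of all probe sets. Each symbol matched 1 probe set, giving 8 of the 5470 probe sets tested. Transcript levels came from 4 Affymetrix Yeast Genome 2.0 arrays of total RNA, 1 per culture. All 4 cultures were strain BY4741, a haploid of mating type a carrying the alleles ura3∆0, his3∆1, met15∆0 and leu2∆0, grown to mid-log phase at 30 °C in synthetic complete medium without leucine. In 2 cultures the cells carried p425-GPD-RNase H1, a LEU2 plasmid for RNase H1 overexpression, and in the other 2 they carried the empty plasmid p425-GPD. RNase H1 is an enzyme that digests RNA paired with DNA, and the study set cultures with its gene on the plasmid against cultures without it. The replicates were biological per the labels, and the groups are called control and RNase H1 arrays below, as labelled.

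IMP dehydrogenase makes the first step from IMP towards GTP and is the controlled step of that branch. In budding yeast IMD2 is known for a switch at its promoter: when GTP is plentiful, RNA polymerase II starts upstream and the short transcript is ended early by the Nrd1-Nab3-Sen1 complex and degraded, and when GTP is scarce it starts downstream and makes the mRNA. URA2 and URA8 are known for related start-site choices that follow the supply of UTP and CTP. The de novo pyrimidine pathway runs from URA2 through URA4 and URA1 to orotate, then through URA5 or URA10 and URA3 to UMP, and URA7 and URA8 turn UTP into CTP. The activator Ppr1 raises URA1, URA3, URA4 and URA10 when its inducer, an intermediate upstream of Ura3, builds up. A ura3 strain lacks the last enzyme before UMP and takes its pyrimidines from uracil in the medium.

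The values are MAS5 signals on a linear scale, with sums per array between 6889800 and 7097900. The limit for a dim probe set was a signal of 2.13, taken from probe sets of S. pombe, which shares the array. URA3 read 0.325 and 0.183 in the controls and 2.92 and 4.04 in the RNase H1 arrays. Its mean log2 signal was below that limit, though both RNase H1 readings were above it. MET17, the other name of MET15, read between 2.33 and 9.02. The HIS3 signal lay between 3288 and 4098, and a probe outside the part removed in his3∆1 would not check that allele. LEU2, the plasmid marker, read between 10348 and 12870. Of the a-specific genes, BAR1 read 2730 and 2910 in the controls and 556 and 425 in the RNase H1 arrays, and STE2 read 7352 and 7527 against 3903 and 3853. MFA1 read 4824 and 4813 in the controls and 3284 and 2250 in the RNase H1 arrays. MFA2 read 5935 and 6124 against 3776.5 and 4964. The alpha-specific gene STE3 read 33.6 and 41.5 in the controls and 138 and 75.6 in the RNase H1 arrays, and MF(ALPHA)1 lay between 8.39 and 20.3. RNH1, the yeast RNase H1 gene, read 320 and 292 in the controls and 303 and 307 in the RNase H1 arrays. Its signal therefore does not check the labels, and the labels do not name the species of the insert. Between the RNase H1 arrays 1550 probe sets differed by over 1.5-fold, and between the controls 182 did. Their ratios of 3' to 5' actin signal were 1.68 and 1.48, against 1.34 in both controls.

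IMD2 (YHR216W, chromosome VIII, 554396 to 555967 in the R64 annotation), the inducible IMP dehydrogenase gene, was the member with the largest difference. Its signal was 811 and 814 in the empty vector arrays and 206 and 115 in the RNase H1 arrays. Both of the latter were far below both controls, which differed from each other by 1.004-fold. The mean was 5.28-fold lower (log2 difference −2.40 ± 0.32 SE, n = 2 against 2). It lay 3.95-fold below the control mean in array 1 and 7.05-fold below in array 2. Each SE given here and below is the moderated one of the limma fit, which borrows spread from other probe sets. The SD of the log2 signals of IMD2 itself was 0.0037 in the controls and 0.59 in the RNase H1 arrays. Ordered from the lowest log2 difference, IMD2 stood at place 8 of 5470 probe sets. The lowest of its 4 signals was still 54.1 times the dim limit. The RNA came from whole cultures, so fewer cells with the transcript and less of it per cell cannot be told apart.

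The IMD2 probe set carries the suffix _x_at, which Affymetrix gives to sets holding probes that also match other transcripts. Of the 5498 probe sets with 1 S. cerevisiae gene, 25 have this suffix, and the other members' probe sets end in plain _at. The sources used here do not name the transcripts those probes match. IMD1 is a near-identical subtelomeric copy that is broken in the reference strain. No probe set with 1 S. cerevisiae gene was listed under the name IMD1. Whether the IMD2 value includes its RNA could not be checked here.

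IMD3 (YLR432W, chromosome XII, 1002557 to 1004128) and IMD4 (YML056C, chromosome XIII, 162194 to 164176) encode the constitutive IMP dehydrogenases. IMD3 read 4188 and 4117 in the controls and 3714 and 4993 in the RNase H1 arrays. These last lay on either side of the controls, and the log2 difference was 0.05 ± 0.16 (SE, n = 2 against 2). IMD4 read 4139 and 3859 in the controls and 2671 and 3634 in the RNase H1 arrays, both lower than the controls, array 2 by only 1.10-fold against their mean. Its mean was 1.28-fold lower (log2 difference −0.36 ± 0.17). The IMD4 gene spans 1983 bases, against 1572 for IMD2 and for IMD3, and holds the small nucleolar RNA gene SNR54 at 163535 to 163620 of chromosome XIII.

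The 3 IMP dehydrogenase genes thus had unequal differences. Relative to IMD3 in the same arrays, IMD2 was 5.48-fold lower, with log2 values of −1.82 in array 1 and −3.08 in array 2. Relative to IMD4 it was 4.12-fold lower. Between the controls these ratios differed by log2 0.03 and 0.11. IMD4 relative to IMD3 was −0.42 in array 1 and −0.40 in array 2, close to each other although both genes read about 1.3 times higher in array 2 (1.34-fold for IMD3, 1.36-fold for IMD4). These pairs were picked after their values were seen and were not tested.

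GUA1 (YMR217W, chromosome XIII, 701790 to 703367) encodes GMP synthase, the step after IMP dehydrogenase. It read 4552 and 4281 in the controls and 4250 and 5194 in the RNase H1 arrays. The groups overlapped, and the log2 difference was 0.09 ± 0.12 (SE, n = 2 against 2).

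**Figure D1:**
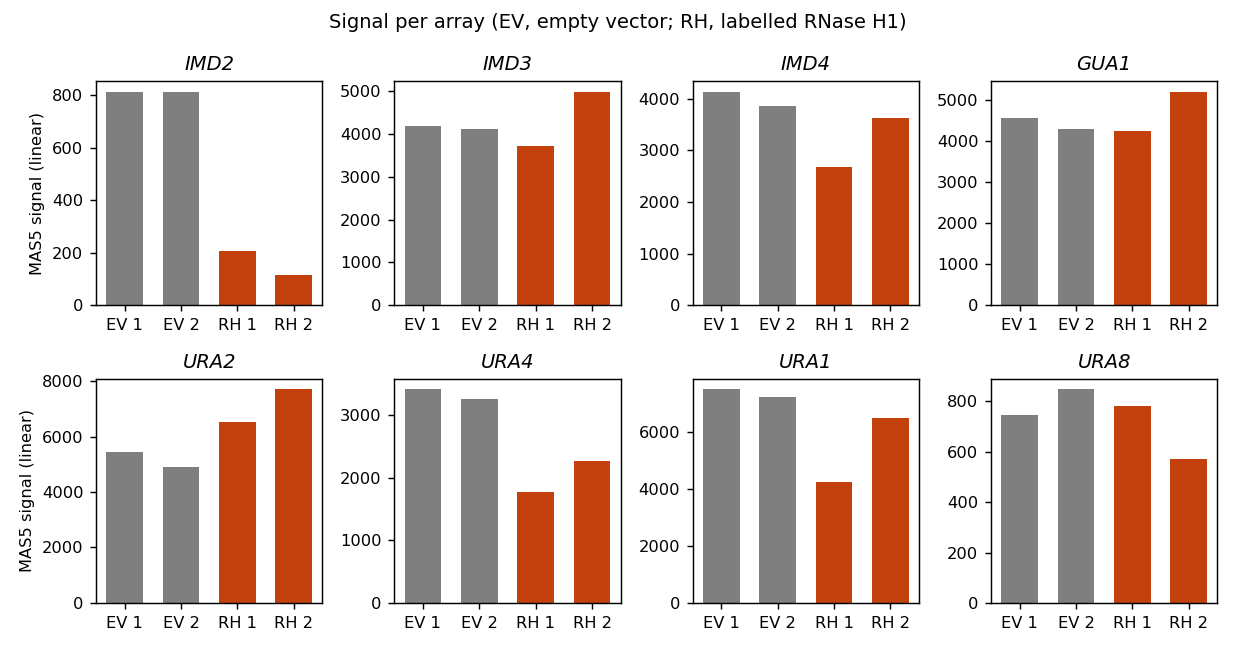
Signal of each member on the 4 arrays, as bars on a linear axis from 0 (EV, empty vector; RH, labelled RNase H1), with a scale of its own per gene. IMD2 reads 811 and 814 in the controls against 206 and 115 in the RNase H1 arrays. IMD4, URA4 and URA1 are also lower in both RNase H1 arrays, and URA2 is higher in both. IMD3, GUA1 and URA8 overlap between the groups.

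In pyrimidine synthesis the members differed in direction. URA2 (YJL130C, chromosome X, 165723 to 172367), the large enzyme that makes carbamoyl phosphate and joins it to aspartate, read 5452 and 4887 in the controls and 6536 and 7698 in the RNase H1 arrays. Both of the latter were above both controls, with a mean 1.37-fold higher (log2 difference 0.46 ± 0.11 SE, n = 2 against 2). After cyclic loess scaling the log2 difference was 0.61.

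URA4 (YLR420W, chromosome XII, 963785 to 964879), the dihydroorotase of the next step, read 3412 and 3255 in the controls and 1779 and 2275 in the RNase H1 arrays. The groups did not overlap, and the mean was 1.66-fold lower (log2 difference −0.73 ± 0.15). URA1 (YKL216W, chromosome XI, 25215 to 26159), the dihydroorotate dehydrogenase, read 7508 and 7251 in the controls and 4264 and 6487 in the RNase H1 arrays. Both of the latter lay below the controls, array 1 by 1.73-fold and array 2 by 1.14-fold against the control mean, and the log2 difference was −0.49 ± 0.21. URA2 against URA4 in the same arrays was log2 1.25 in array 1 and 1.13 in array 2, and URA2 against URA1 was 1.13 and 0.76. Between the controls these ratios differed by log2 0.09 and 0.11. These pairs too were picked after their values were seen and were not tested.

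URA8 (YJR103W, chromosome X, 620754 to 622490) encodes the minor of the CTP synthases. Its signal was 746 and 848 in the controls and 780 and 570 in the RNase H1 arrays. Array 1 lay between the controls and array 2 below both, so the groups overlapped, with a log2 difference of −0.25 ± 0.22 (SE, n = 2 against 2). Without array 2 it was −0.03, and without array 1 −0.48.

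Of the 8 members, 4 had both RNase H1 arrays below both controls (IMD2, IMD4, URA4 and URA1) and 1 above (URA2). Over all tested probe sets 58.8% did not overlap, 30.8% lying below and 28.0% above. In the limma fit across all probe sets, with Benjamini-Hochberg adjustment, 0 of the 8 passed an adjusted p of 0.05, against 1.48% of all probe sets. Since this comparison was known when the genes were chosen, nothing is read from these counts. Over the settings that keep all 4 arrays, the log2 difference of IMD2 lay between −2.47 and −2.00. The median log2 difference of the members was −0.31, against −0.02 over all tested probe sets.

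Because 1 library can move a value here, the members were also set out by array. In array 2 labelled RNase H1, 6 of the 8 members read higher than in array 1, with IMD2 and URA8 lower; over all tested probe sets 40.1% read higher. The pairs of IMD2 (1.78-fold) and URA1 (1.52-fold) were more than 1.5-fold apart, which held for 28.3% of all probe sets. A list of 25 ribosome assembly genes, which are high in fast growth, had a median log2 difference of 0.21 in array 1 and 1.14 in array 2, and 24 of the 25 read higher in array 2. A list of 25 genes of the induced stress response had medians of 0.59 and −1.45, and all 25 read lower in array 2. Of the ribosome assembly list 1 gene passed the test as higher (UTP10, which helps process the small subunit RNA, log2 difference 1.23 ± 0.14, limma adjusted p = 0.0404) and 0 as lower, and of the stress list 0 passed. Before adjustment, at p under 0.05, the ribosome assembly list had 10 higher and 0 lower and the stress list 1 higher and 1 lower, where 11.0% of all probe sets were higher and 12.7% lower. All 25 ribosome assembly genes had a log2 difference above 0, against 2660 of all 5470 tested probe sets. Leaving out control array 1 or 2 took UTP10 out of the calls (adjusted p = 0.0758 and 0.111), as did median scaling (0.0627), no intensity trend (0.104) and the replicate block (0.0507). The part of this contrast between the arrays in the members' values was not tested.

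**Figure D2:**
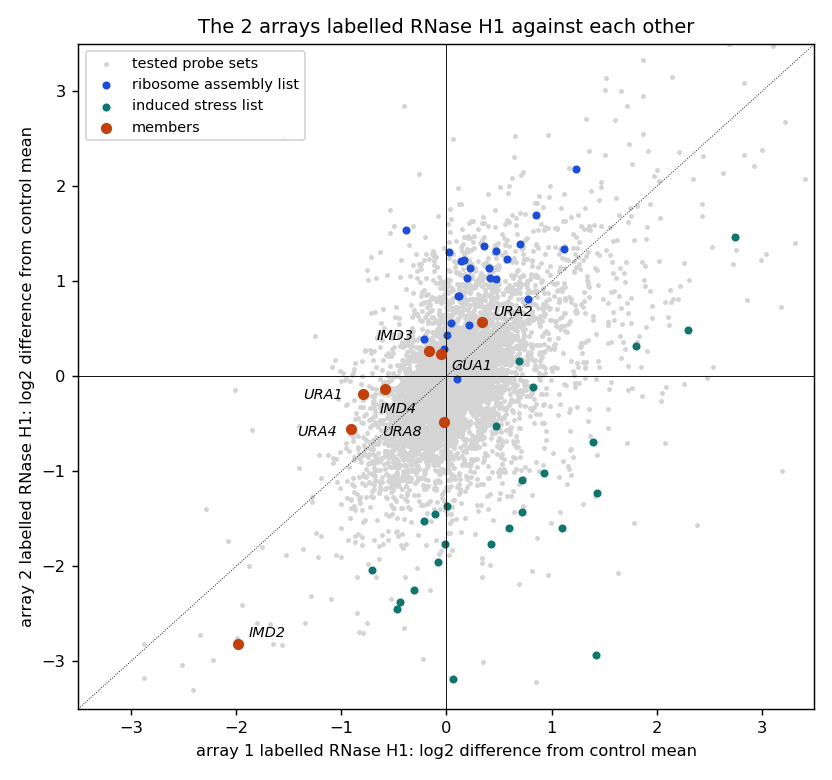
Log2 difference of each tested probe set from the control mean in array 1 (x axis) and array 2 (y axis) labelled RNase H1, with the dotted line marking equal values and 32 probe sets beyond the axes at 3.5. IMD2 lies at −1.98 and −2.82, URA4, URA1 and IMD4 are below 0 in both arrays, URA2 is above 0 in both, and the stress list (green) lies below the line.

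Other genes of pyrimidine synthesis were read from a list chosen by role. Of its genes 6 were tested, with the mean of URA3 under the dim limit. Of the 6, 1 passed as higher and 0 as lower, against 1.13% and 0.347% of all probe sets. CPA1, a subunit of the carbamoyl phosphate synthetase of arginine synthesis, rose from 2320 and 2293 to 4143 and 4334 (1.84-fold, log2 difference 0.88 ± 0.09 SE, n = 2 against 2, limma adjusted p = 0.0307). Both RNase H1 arrays were above both controls and close to each other. CPA1 lost its call when control array 1 or 2 was left out (adjusted p = 0.0834 and 0.0931), after median scaling (0.0614) and without an intensity trend (0.123).

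URA10, the minor orotate phosphoribosyltransferase gene, read 170 and 201 in the controls and 502 and 361 in the RNase H1 arrays, a log2 difference of 1.20 ± 0.25 that did not pass (limma adjusted p = 0.0927). PPR1, the activator gene, read 221 and 228 in the controls and 355 and 354 in the RNase H1 arrays (0.66 ± 0.18, adjusted p = 0.131). Of the genes Ppr1 is known to raise, URA1 and URA4 thus had mean log2 differences of −0.49 and −0.73 and URA10 one of 1.20. URA3 had a mean signal under the dim limit and was not tested, though both RNase H1 arrays read above that limit.

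URA5, the major orotate phosphoribosyltransferase gene, had a log2 difference of −0.24 ± 0.08 (limma adjusted p = 0.178). URA7, the major CTP synthase gene, had one of 0.28 ± 0.12 (adjusted p = 0.249), beside −0.25 for its paralog URA8. Neither passed. For URA7 the RNase H1 arrays (2408 and 2684) both lay above the controls (2218 and 1988). For URA5 they (4745 and 5120) both lay below the controls (5992 and 5624.5).

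All 16 genes for salvage and uptake of pyrimidines were tested and 0 passed in limma. Before adjustment 2 were higher and 4 lower at p under 0.05, where 11.0% of all probe sets were higher and 12.7% lower. FCY21, a relative of the purine-cytosine permease gene FCY2, read 153 and 196 in the controls and 47.2 and 43.2 in the RNase H1 arrays. These did not overlap, at 3.83-fold lower (log2 difference −1.94 ± 0.27, limma adjusted p = 0.0552), and FCY21 was also the lowest of this list. It passed after quantile (0.0350) and cyclic loess scaling (0.0354), and its log2 difference was −1.12 with a pseudocount of 64. SDT1, a pyrimidine nucleotidase gene, had a log2 difference of 0.77 ± 0.17 (adjusted p = 0.098). The list's median was −0.18.

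For guanine nucleotides, 13 of the 14 other genes were tested and 0 passed in limma, with a median log2 difference of 0.13. Before adjustment 3 were higher and 2 lower at p under 0.05, where 11.0% of all probe sets were higher and 12.7% lower. GUK1, the guanylate kinase after GUA1, had a log2 difference of −0.26 ± 0.08 (limma adjusted p = 0.153). HPT1, which salvages hypoxanthine and guanine, read 1152 and 1229 in the controls and 1754 and 3096 in the RNase H1 arrays (0.97 ± 0.29, adjusted p = 0.158). Both of the latter were above the controls, with array 2 the higher. ADE12, the first enzyme of the branch from IMP to AMP and another gene known for nucleotide-dependent attenuation, had a log2 difference of 0.47 ± 0.24 (adjusted p = 0.307), with 0.14 in array 1 and 0.80 in array 2.

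**Figure D3:**
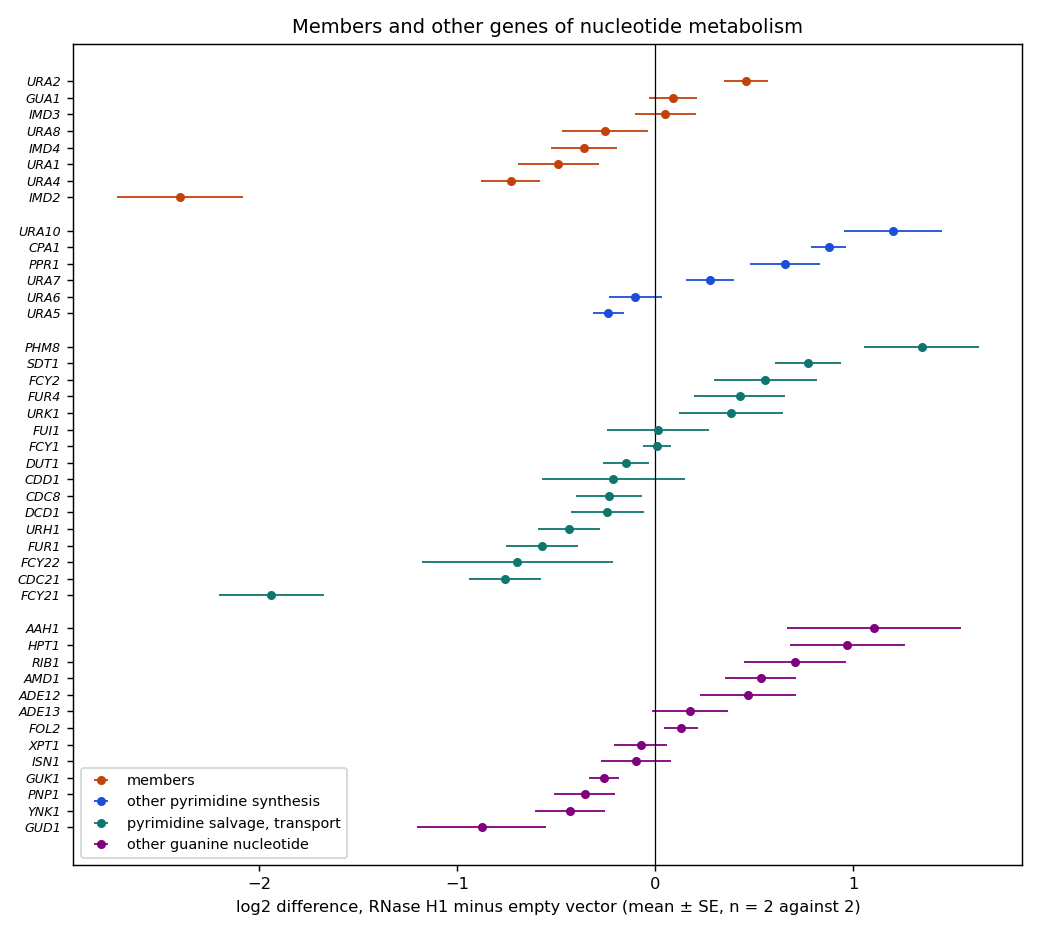
Mean log2 difference (RNase H1 minus empty vector) of the 8 members and of the tested genes of 3 lists of nucleotide metabolism. Bars show the moderated SE of the limma fit (n = 2 against 2). IMD2 is the lowest at −2.40 and FCY21 the next at −1.94, and CPA1, the gene of these lists that passed the test, lies at 0.88.

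Of 4 ribonucleotide reductase genes and 5 genes for phosphoribosyl pyrophosphate, the ribose phosphate donor, 0 passed in limma. Before adjustment 0 had p under 0.05, where 11.0% of all probe sets were higher and 12.7% lower. The median log2 differences of the 2 lists were 0.13 and 0.17. RNR1, the main large reductase subunit, had a log2 difference of −0.31 (adjusted p = 0.307) and RNR3, its minor form induced by DNA damage, one of 0.54 (0.402). PRS4 and PRS5, synthetase subunits for phosphoribosyl pyrophosphate, had differences of 0.49 (0.285) and 0.30 (0.295).

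The factors that end the short IMD2 transcripts were also measured. Of 14 genes of early termination and nuclear RNA decay 0 passed in limma, with a median log2 difference of 0.00. Before adjustment 1 was higher and 0 lower at p under 0.05, where 11.0% of all probe sets were higher and 12.7% lower. NRD1 read 1020 and 1102 in the controls and 1356 and 646 in the RNase H1 arrays, on either side of the controls (log2 difference −0.18 ± 0.37, adjusted p = 0.796). Its partner NAB3, an RNA-binding protein, had a log2 difference of −0.26 ± 0.26 (adjusted p = 0.564), and HRP1, a cleavage factor subunit, one of −0.11 ± 0.18 (0.735). SEN1, the helicase of the complex, which also unwinds RNA-DNA hybrids, had one of 0.34 ± 0.17 (0.301). MTR4, a helicase that feeds RNA to the nuclear exosome, had one of 0.85 ± 0.17 (0.0885), and RRP6, an exosome nuclease, one of 0.42 ± 0.16 (0.214).

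Of 20 genes for elongation and start-site choice 0 passed in limma, with a median log2 difference of −0.04. Before adjustment 2 were higher and 0 lower at p under 0.05, where 11.0% of all probe sets were higher and 12.7% lower. CTR9, a subunit of the Paf1 complex, had a log2 difference of 0.65 ± 0.21 (adjusted p = 0.178). SUA7, which encodes TFIIB, a factor that sets start sites, had one of 0.41 ± 0.16 (0.206). DST1, the elongation factor TFIIS, had one of −0.16 ± 0.16 (0.575).

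The genes with the pattern most like that of IMD2 were found by the root mean square difference over the 4 arrays of log2 signals centred on the control mean. The nearest 5 were FIG1 (0.14), AGA1 (0.16), YJL218W (0.16), SST2 (0.18) and AGA2 (0.18). FIG1 is a membrane protein of mating, AGA1 and AGA2 are the subunits of a-agglutinin, and SST2 damps the pheromone signal. Their log2 differences lay between −2.60 for AGA1 and −2.14 for AGA2, and all 5 were lower in array 2 labelled RNase H1 than in array 1, as IMD2 was. BAR1, the protease that degrades alpha-factor, stood at place 7 from the lowest log2 difference, next to IMD2 (−2.54 ± 0.18, limma adjusted p = 0.0188). For URA8 the nearest were OKP1 (0.01), EGO2, ATG2, DNF1 and CHS6 (0.03), with differences between −0.28 and −0.22. Over 4 arrays this likeness is a description only.

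In position, the 8 genes lie on 5 chromosomes with no pair of members adjacent. IMD2 lies 6080 bases before the last annotated base of chromosome VIII, while every other member is at least 73770 bases before the last annotated base of its chromosome; URA1, starting at base 25215, lies near the other end of chromosome XI. The protein-coding neighbours of IMD2 are PHO12 and YHR218W, which no tested probe set names. Of the 16 protein-coding neighbours of the members 14 were tested, and 0 passed in limma (lowest adjusted p = 0.109, SOD1 beside URA8). Before adjustment 3 had p under 0.05, where 11.0% of all probe sets were higher and 12.7% lower. The log2 differences of the neighbours ran from −0.71 for OXP1 to 0.67 for JEN1, both beside URA1, with 6 above 0 and 8 below.

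**Figure D4:**
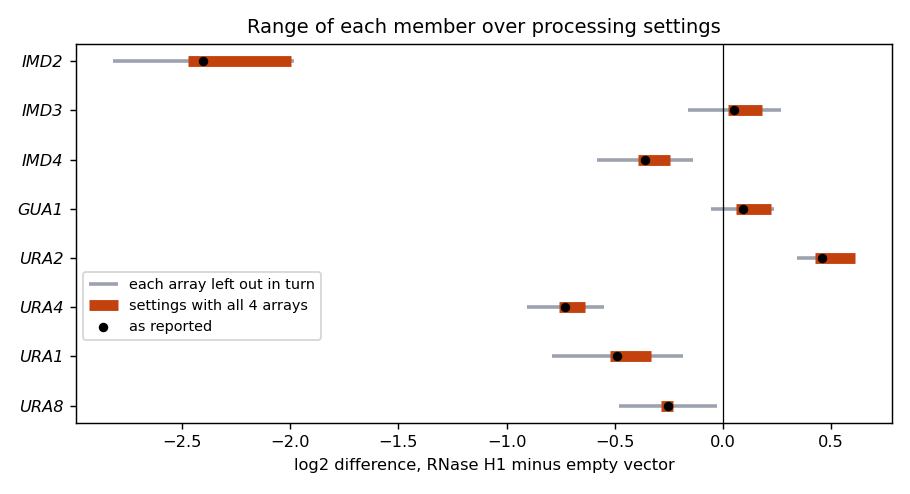
Log2 difference of each member as reported (point), over the settings that keep all 4 arrays (thick bar) and over the fits that leave out 1 array (thin line). IMD2, IMD4, URA4, URA1 and URA8 stay below 0 and URA2 above 0 throughout, while IMD3 and GUA1 cross 0 when an array is left out.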

How the data were processed

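The deposited values are linear intensity signals from MAS5, run in Affymetrix Expression Console, per the submitters' processing notes. No source used here states the scaling target. Of 10928 probe sets, 5498 had 1 S. cerevisiae gene in the platform annotation, and names, loci and coordinates followed the R64 RefSeq table (12 symbols updated). Probe sets with a mean log2 signal at or below the 75th percentile of the 1746 S. pombe probe sets were left out (28), leaving 5470 of 5425 genes. Log2 signals were compared by plasmid, RNase H1 minus empty vector. The test was limma's (version 3.58.1, R 4.3.3), with lmFit and an intensity trend in eBayes, two-sided, Benjamini-Hochberg adjusted over all 5470, threshold 0.05. An exact permutation test of 2 against 2 cannot go below p = 0.333. The steps were tested on simulated arrays with equal spread in both groups. In the data the median SD was 0.076 in the controls and 0.24 in the RNase H1 arrays. The simulation therefore does not check the calls under unequal spread.

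The number of arrays limits the precision. The members and the lists were chosen with earlier results of these data known. Lists covered other pyrimidine and guanine nucleotide genes, pyrimidine salvage, ribonucleotide reductase, phosphoribosyl pyrophosphate, early termination, elongation and start-site choice, with ribosome assembly and induced stress beside them. Named were the members, and for each list every gene past the threshold or else those with the smallest p (up to 2). The induced stress list was an exception, and its genes were not named. Also named were a fixed set of pathway and marker genes and the 5 nearest patterns of IMD2 and URA8. Planned comparisons of promoter and protein sequences were not made. A further gene of the pyrimidine synthesis list is not reported here. Alternatives were quantile, median and cyclic loess scaling, other dim filters, pseudocounts of 16 and 64, no trend, robust eBayes, leaving out each array, a block by replicate number and an adjusted p under 0.10.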

Additional observations from a re-analysis of the deposited data

How the results depend on the processing

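The log2 differences of the members were the same within 1 SD between replicates under quantile, median and cyclic loess scaling and pseudocounts of 16 and 64, except URA2, at 0.61 after cyclic loess scaling. With each array left out in turn, they ranged from −2.82 to −1.98 for IMD2, −0.16 to 0.27 for IMD3, −0.58 to −0.14 for IMD4, −0.05 to 0.23 for GUA1, 0.34 to 0.58 for URA2, −0.91 to −0.55 for URA4, −0.79 to −0.19 for URA1 and −0.48 to −0.03 for URA8, and from −0.37 to −0.16 for their median. Members past the threshold numbered 0 as reported and 1 (IMD2) after quantile, median or cyclic loess scaling and with the replicate block. They numbered 2 at an adjusted p under 0.10 (IMD2 and URA4), and between 0 and 7 with an array left out. As the members were chosen with these values known, their counts describe the settings and test nothing. Over all probe sets 81 passed as reported, 7 without an intensity trend, 365 at an adjusted p under 0.10 and between 64 and 2788 with an array left out. The highest counts came without an array labelled RNase H1 (2788 without array 1, 1761 without array 2), where the spread is taken from the controls alone, so passing there is no sign of stability.

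Of the list of other pyrimidine synthesis genes 1 passed the threshold as reported, CPA1 of arginine synthesis. The count was 0 after median scaling and without an intensity trend, and 2 at an adjusted p under 0.10 (CPA1 and URA10). Salvage genes numbered 0 as reported, 1 (FCY21) after quantile and cyclic loess scaling, 3 at an adjusted p under 0.10, and 0 to 11 with an array left out. Early termination genes numbered 1 at an adjusted p under 0.10 and 0 to 10 with an array left out. With an array left out the other lists gave 0 to 10 (guanine nucleotides), 0 to 2 (ribonucleotide reductase), 0 to 4 (phosphoribosyl pyrophosphate) and 0 to 5 (elongation and start site), and 0 in the planned settings with all arrays. Across probe sets, the deviations of samples with equal numbers from their group means correlated at r = −0.30. The labels state no pairing, so this value cannot tell whether the numbers are crossed. A crossed block, chosen after seeing the data, gave 4 members and 937 probe sets past the threshold. By list it gave 4 guanine nucleotide, 2 other pyrimidine synthesis, 6 salvage and 2 early termination genes. The reductase, phosphoribosyl pyrophosphate and elongation lists had 0. The replicate block put IMD2 past the threshold and left UTP10 short of it (adjusted p = 0.0507); CPA1 passed with it too (0.0419). For values with no cause named here, the cause was not tested.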
